A study of Homo sapiens with 6 samples.

Results

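Peak clusters of the histone mark H3K27me3 were described in H69 (NCI-H69), a line of small cell lung cancer (SCLC), and in its derivative H69M. In each line, H3K27me3 peaks on chromosomes 1 to 22 and X were joined where 10000 bp or less lay between them, and a joined region with 5 or more peaks was kept as a peak cluster. This gave 925 clusters out of 8827 joined regions in H69 and 1784 out of 10736 in H69M, together 2709 of 19563. The members were thus chosen by the number and spacing of the H3K27me3 peaks themselves, so the number, size and score of the clusters are descriptions, while H3K27ac and position relative to genes were not used by it. The study examined isogenic SCLC lines and cells that differ in MHC class I. Each line gave 1 chromatin immunoprecipitation library for H3K27me3, 1 for H3K27ac and 1 input library. Neither line carries a labelled genotype change or drug treatment, and whether H69M is a clone is not given in the sources used here. With 1 library per group there is no replicate check and no test between the lines, and read depth is unknown.

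H3K27me3 is laid down by Polycomb repressive complex 2 (PRC2), whose catalytic subunit is EZH2 or EZH1, and marks genes kept silent. In many cell types it lies in broad domains over the genes of developmental transcription factors, where PRC2 is drawn to CpG-rich promoters that are not transcribed. H3K27ac sits on the same lysine at active promoters and enhancers, so a single histone tail cannot carry both marks. A peak list from bulk chromatin cannot tell few marked cells from a low level of the mark in all cells, and it can show both marks at a place where different cells or alleles carry one each.

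The promoters of 5 developmental regulators show the kind of sequence involved. LMX1B, WT1, GATA6 and PAX2 are the genes alone in their window that had a peak cluster in both lines and the most H3K27me3 peaks. PAX5 is the contrast, with no H3K27me3 peak in either line. Its window of 210 kb held 30.1 kb of H3K27ac in H69, the most of windows without H3K27me3. In H69M it held 19.7 kb, less than the 30.5 kb of the LMX1A window. Each line gives the 250 bases before the gene's start on its own strand, from RefSeq on GRCh38.p14, with every CG dinucleotide, the motif searched, in capitals. CG reads the same on both strands.
LMX1B: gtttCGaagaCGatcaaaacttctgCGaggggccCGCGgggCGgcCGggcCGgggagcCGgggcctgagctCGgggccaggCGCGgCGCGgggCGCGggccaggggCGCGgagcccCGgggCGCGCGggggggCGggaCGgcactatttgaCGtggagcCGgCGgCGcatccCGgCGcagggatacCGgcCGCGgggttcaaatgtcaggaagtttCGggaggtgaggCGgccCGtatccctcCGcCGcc
WT1: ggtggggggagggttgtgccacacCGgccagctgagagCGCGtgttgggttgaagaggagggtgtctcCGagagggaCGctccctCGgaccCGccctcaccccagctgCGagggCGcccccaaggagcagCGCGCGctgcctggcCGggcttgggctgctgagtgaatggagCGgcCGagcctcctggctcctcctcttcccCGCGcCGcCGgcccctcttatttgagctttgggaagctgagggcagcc
GATA6: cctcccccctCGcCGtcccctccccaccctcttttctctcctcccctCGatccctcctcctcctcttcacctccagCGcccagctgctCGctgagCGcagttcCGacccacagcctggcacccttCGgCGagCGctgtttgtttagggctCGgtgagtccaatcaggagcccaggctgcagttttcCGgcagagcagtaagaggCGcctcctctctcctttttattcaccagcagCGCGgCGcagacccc
PAX2: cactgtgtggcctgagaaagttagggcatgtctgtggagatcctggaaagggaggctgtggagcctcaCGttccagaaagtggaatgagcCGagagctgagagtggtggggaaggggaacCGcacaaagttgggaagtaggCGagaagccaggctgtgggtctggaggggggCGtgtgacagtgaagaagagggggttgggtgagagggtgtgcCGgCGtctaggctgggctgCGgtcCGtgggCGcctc
PAX5: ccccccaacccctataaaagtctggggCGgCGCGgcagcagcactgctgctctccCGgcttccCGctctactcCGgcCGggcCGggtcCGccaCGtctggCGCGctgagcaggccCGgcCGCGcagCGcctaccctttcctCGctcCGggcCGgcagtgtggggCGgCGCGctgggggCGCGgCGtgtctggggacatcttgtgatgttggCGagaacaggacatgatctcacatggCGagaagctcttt

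These stretches lie at chr9:126613678-126613927 (LMX1B, plus strand), chr11:32435540-32435789 (WT1, minus strand), chr18:22169339-22169588 (GATA6, plus strand), chr10:100735146-100735395 (PAX2, plus strand) and chr9:37034269-37034518 (PAX5, minus strand) on GRCh38.p14, whereas all peak positions in the text are on hg19. LMX1B holds 38 CG dinucleotides, WT1 19, GATA6 16, PAX2 10 and PAX5 27. Over 35116 RefSeq promoters of this length the median was 11, and 3.28% held as many as LMX1B, 34.6% as many as WT1, 41.0% as many as GATA6, 52.2% as many as PAX2 and 17.7% as many as PAX5. In the 14 single-gene windows with a peak cluster in both lines the median was 18.5, and in the 29 with a cluster in neither line it was 20. In these 250 bases both kinds of regulator, marked and unmarked, thus had a median above that of all promoters and below their upper quartile of 23. PAX2 lay below the median of all promoters.

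Most joined regions were single peaks, and the clusters held a large share of the mark. In H69, 5286 of 8827 regions (59.9%) were 1 peak alone, while the 925 clusters held 9610 of 21638 peaks (44.4%) and 50.2% of the covered length, the summed length of peaks. In H69M, 5596 of 10736 regions (52.1%) were 1 peak alone, and the 1784 clusters held 23479 of 37853 peaks (62.0%) and 69.2% of the covered length. The clusters were sparse inside. Their median span was 18.6 kb in H69 against 16.4 kb in H69M, of which peaks covered a median of 9.82% and 11.5%. The median cluster held 7 peaks in H69 against 8 in H69M. The widest spanned 151 kb and 250 kb. The clusters covered 2.46 Mb in H69 against 5.50 Mb in H69M, a ratio of 2.24, over spans that summed to 21.8 Mb and 42.9 Mb. When the H69M list was shortened to its highest scoring peaks so that both lists were of equal length, H69M held 1049 clusters and the ratio was 1.44.

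Just inside and just outside the threshold the regions graded into each other. In H69 the 229 regions of 5 peaks had a median span of 10.97 kb and covered length of 1.06 kb, and the 402 regions of 4 peaks had 9.02 kb and 0.802 kb. In H69M the 399 regions of 5 peaks had 8.29 kb and 0.854 kb, and the 567 regions of 4 peaks 6.16 kb and 0.677 kb. Sharing between the lines rose with the number of peaks, as the plot of regions by number of peaks shows. Of the H69 regions, 46.3% of those with 4 peaks, 63.3% of those with 5, all 77 with 20 to 49 and all 9 with 50 or more overlapped an H69M cluster. In H69M these shares were 9.17%, 12.03% and, with 50 or more peaks, 93.4% of 61 regions.

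**Figure D1:**
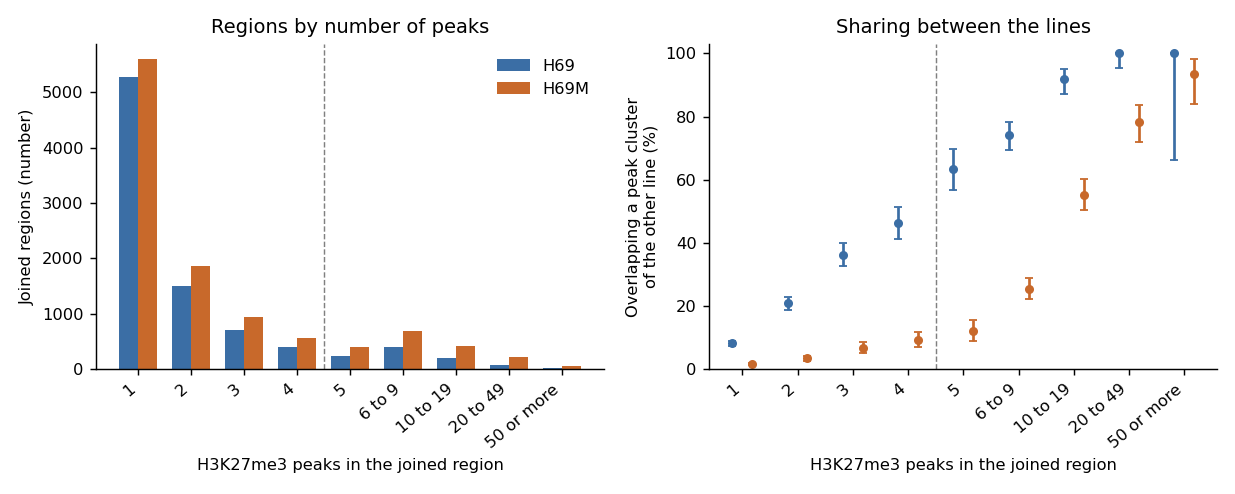
Left, number of joined H3K27me3 regions by the number of peaks they hold in H69 (blue) and H69M (orange). Right, share of those regions that overlap (1 bp or more) a peak cluster of the other line, with exact 95% binomial intervals. The dashed line marks the threshold of 5 peaks. The share rises with the number of peaks and reaches 100% in H69 and 93.4% in H69M at 50 or more.

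Most H69 clusters lay where H69M also had a cluster, and most H69M clusters had no counterpart in H69. Of the 925 H69 clusters 719 (77.7%, exact 95% interval 74.9 to 80.4) overlapped an H69M cluster by 1 bp or more, against 21.6% of H69 joined regions of any size. Of the 1784 H69M clusters 678 (38.0%, 35.7 to 40.3) overlapped an H69 cluster, against 8.73% of H69M joined regions of any size. These intervals and all others given for shares cover counting error only and treat regions as independent, although neighbours are not. Sharing was measured on the mark that chose the members, and an overlap of 1 bp is likelier in a longer region. The median H69 cluster spanned 18.6 kb, whereas 5286 of the 8827 H69 joined regions were single peaks with a median of 0.179 kb. Nothing is therefore read from the contrast with regions of any size. Among the 50 clusters with the greatest covered length, 48 in H69 and 43 in H69M were shared. In the upper and lower parts of the size ranking 88.5% and 67.0% of H69 clusters were shared, and 57.2% and 18.8% of H69M clusters.

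Most clusters without a counterpart still held some peaks of the other line. For joined regions of any size, 40% of H69 ones overlapped any H69M joined region and 29.8% of H69M ones any H69 joined region. Of the 206 H69-only clusters 48 held no H69M peak, 151 held 1 to 4 and 7 held 5 or more. Of the 1106 H69M-only clusters 327 held no H69 peak, 738 held 1 to 4 and 41 held 5 or more. The line-only clusters were also smaller. Their median number of peaks was 6 in both lines, against 8 and 13 for shared clusters of H69 and H69M. With lists of equal length the shared parts came closer together, at 58.7% of H69 and 52.0% of H69M clusters.

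Overlapping clusters of both lines were merged into 1942 regions, of which 630 had a cluster in both, 206 in H69 alone and 1106 in H69M alone. In the 630 the mark covered 2.24 Mb in H69 against 3.49 Mb in H69M. It was longer in H69M in 466 (74.0%), and the median log2 ratio with a pseudocount of 200 bp was 0.40. A length at least 2-fold higher in H69M was found in 154 of the 630 (24.4%) and at least 2-fold lower in 14 (2.22%). Over all merged regions of any size these shares were 54.1% and 35.9%. The members were chosen on this mark, so nothing is read from that contrast. Most regions clustered in both lines differed by less than 2-fold in covered length.

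**Figure D2:**
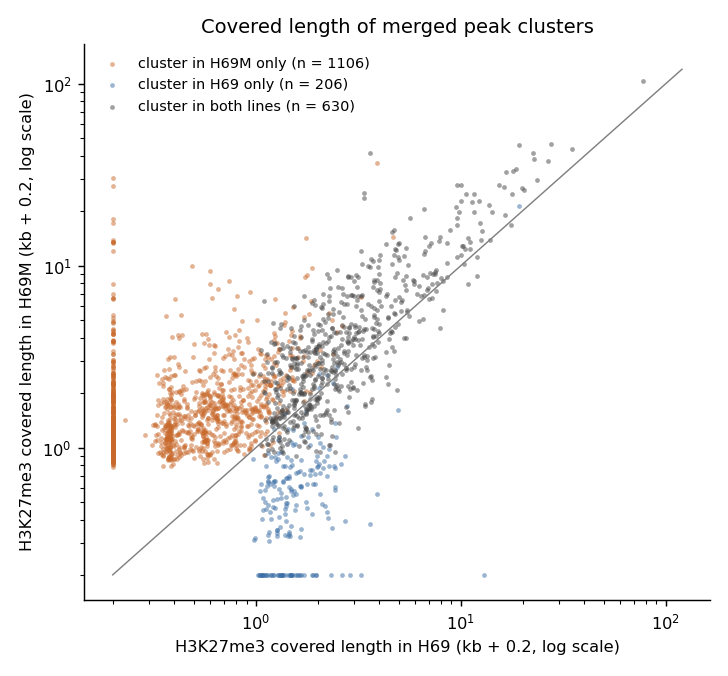
H3K27me3 covered length of the 1942 merged peak clusters in H69 (x axis) and H69M (y axis), in kb plus 0.2 on log axes; each point is a region and the line marks equal length. The 630 regions clustered in both lines (grey) lie along and mostly above the line, the H69M-only regions (orange) above it, and the column of points at the left edge has no H69 peak.

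Most of the largest clusters lay in both lines, and they ranged from dense blocks to sparse ones. Among the 10 with the greatest covered length, the peaks covered from 16.5% of the span, at chr12:132822447-132939157, to 88.4% in H69. In H69M chr2:91751043-91821927 had no H69 cluster, and chr4:49272286-49337115 had 41.1 kb there against 3.42 kb in H69. The first by covered length, chr8:86726455-86841005, held 77.7 kb of H3K27me3 peaks in H69 and 104 kb in H69M, with no H3K27ac in either line. On the same chromosome, chr8:86554854-86576378 counted as H69-only, but the mark covered 19.03 kb there in 10 H69 peaks and 21.02 kb in 3 wide H69M peaks. This region therefore differed in how it was cut into peaks more than in its covered length. On chromosome 19, chr19:1658230-1808857 had 109 H69 peaks over 27.2 kb and 184 H69M peaks over 46.3 kb. The other H69 blocks among the first 10 included chr19:8848374-8905060 (34.6 kb in H69 against 42.5 kb in H69M), chr1:2583532-2631087 (26.4 kb and 35.1 kb) and chr12:132822447-132939157 (19.2 kb and 20.9 kb). None of the 10 largest clusters of either line overlapped a window of a developmental regulator, and among the 100 largest 9 in H69 and 4 in H69M did.

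A pair of large clusters lay on arrays of small RNA genes, named after their values were seen and placed from general knowledge of hg19. The 5S ribosomal RNA gene array on chromosome 1 carried the H69 cluster chr1:228744730-228781744. H3K27me3 covered 22.6 kb of it in H69 and 36 kb in H69M, and H3K27ac covered 12.4 kb in H69 against 6.63 kb in H69M. The transfer RNA gene array at 1q23 carried the H69M cluster chr1:161403442-161450272, with 3.18 kb of H3K27me3 in H69 and 24.8 kb in H69M. H3K27ac covered 11.3 kb there in H69 and 10.5 kb in H69M. Both arrays therefore had peaks of both marks in both lines. Such arrays consist of repeated sequence, and how the authors placed reads with several matches is not given in the sources used here.

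Clusters were unevenly spread over chromosomes. Chromosome 19 held 210 H69 clusters (22.7%) and 242 H69M clusters (13.6%), or 3.56 and 4.10 per Mb, while it held 16.2% and 13.2% of all H3K27me3 peaks of these lines and 4.40% and 3.47% of their H3K27ac peaks. In H69M its share of clusters was thus close to its share of the peaks they were built from. Of its H3K27me3 clusters 175 in H69 and 163 in H69M were shared. Chromosome 2 held only 9 and 32 clusters, and chromosome X held 0 in H69 and 15 in H69M. The step from H69 to H69M was small on chromosome 19 and large on chromosome 1 (40 and 130 clusters), chromosome 8 (38 and 115) and chromosome 20 (24 and 72).

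**Figure D3:**
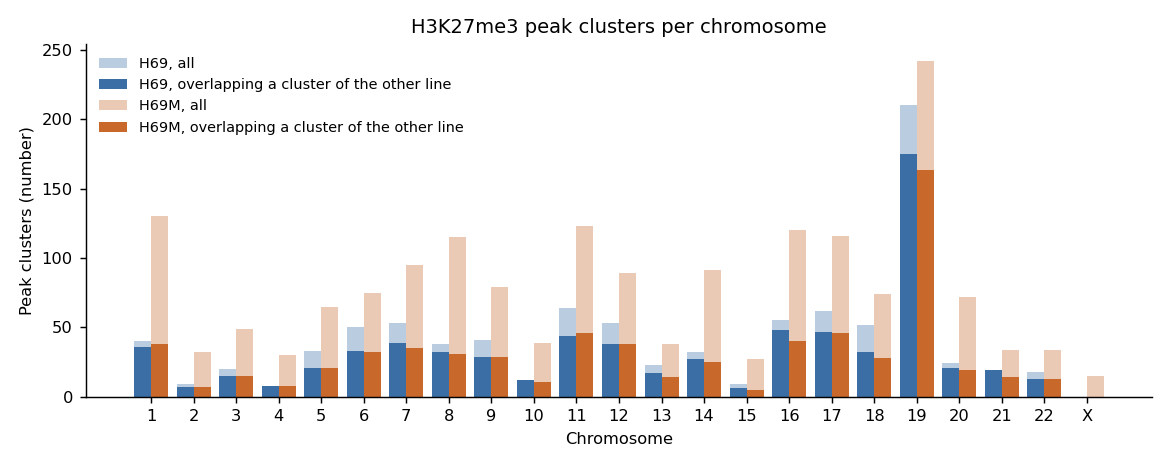
Number of H3K27me3 peak clusters on each chromosome in H69 (blue) and H69M (orange); the dark part of each bar counts clusters that overlap a cluster of the other line. Chromosome 19 has the most clusters in both lines, 210 and 242, and chromosome X has 0 and 15.

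Within chromosomes a minority of clusters lay near the ends, a larger share than of smaller regions, and many clusters lay beside one another. Of the H69 clusters 271 (29.3%, 26.4 to 32.3) and of the H69M clusters 413 (23.2%, 21.2 to 25.2) lay within 5 Mb of the first or last peak of a chromosome. Joined regions of 4 peaks or fewer did so in 15.7% and 15.5%, and H3K27ac peaks in 12.9% and 9.97%. Whether the many clusters of chromosome 19, which is short, gave this difference was not tested. Neighbours at most 100 kb apart joined 554 H69 clusters (59.9%) into 189 runs and 1128 H69M clusters (63.2%) into 334 runs. The runs rest on the spacing of the same mark that chose the clusters. No such share was taken for joined regions of any size, so these shares are descriptions. The longest run was in H69M at chr18:10587493-12309784, with 24 clusters and 145 kb of H3K27me3, where H69 had 15 clusters and 79.7 kb.

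H3K27me3 lay beside the longest peak-free stretches of chromosomes more often in H69M, in small regions as well as in clusters. On each chromosome the longest stretch without any peak was found, and 146 H69M clusters (8.18%) lay within 2 Mb of it, against 17 H69 clusters (1.84%) and 1.68% of H69M H3K27ac peaks. Joined regions of 4 peaks or fewer did so in 6.65% of cases in H69M and 2.52% in H69, so the whole H69M list shared this trait. The H69M-only clusters accounted for 132 of the 146. The 5 H69M-only clusters with the greatest covered length all lay there. They included chr2:91751043-91821927 with 36.4 kb in H69M and 3.69 kb in H69, and chr8:47085959-47187782 with 151 peaks over 30.2 kb in H69M and none in H69. Another was chr5:49406623-49441615, with 27.2 kb in H69M and none in H69. Without these peaks H69M had 1638 clusters, of which 40.5% were shared.

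Developmental regulators, the textbook place of Polycomb domains, were examined in 80 windows that each hold 1 such gene or a gene group. A cluster overlapped 25 windows in H69 (31.3%, 21.3 to 42.6), 26 in H69M (32.5%, 22.4 to 43.9) and 23 in both (28.8%, 19.2 to 39.95). Of 30 kb tiles over the chromosomes 1.67% overlapped an H69 cluster, 3.2% an H69M cluster and 1.27% clusters of both. Of the tiles with an H3K27ac peak in either line, 1.76% and 2.72% did. In the 52 windows of 50 kb or shorter, whose median length was 20 kb, 11 (21.2%) had a cluster in H69 and 14 (26.9%) in H69M. Windows with a cluster were therefore more frequent than tiles with one, but 52 of the 80 windows had a cluster in neither line and 35 had no H3K27me3 peak at all.

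By family, a cluster in both lines was found in 11 of 35 windows of homeobox genes, 3 of 16 of other transcription factors, 2 of 5 of PAX genes, 2 of 10 of GATA and T-box genes and 2 of 9 of SOX and forkhead genes. The clusters in these windows, 32 in H69 and 39 in H69M, were 3.46% and 2.19% of all clusters. Their highest peak scores had a median of 288 in H69 and 444 in H69M, against 128 and 154 for all other clusters. They were shared in 28 of 32 cases in H69 (87.5%) and 28 of 39 in H69M (71.8%, 55.1 to 85.0), against 77.4% and 37.2% of the others. They were also larger, with a median of 10 peaks against 7 in H69 and 13 against 8 in H69M, and sharing rose with the number of peaks among all clusters. Whether they were shared more often than other clusters of their size was not tested.

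Among homeobox genes, the window of LMX1B, a LIM homeobox factor of limb and kidney development, had 34 peaks over 11.1 kb in H69 and 53 over 14.5 kb in H69M. It held 3 clusters in each line and no H3K27ac peak in either. The IRX4, IRX2 and IRX1 window, the Iroquois genes of chromosome 5, had 12.3 kb in H69 against 23.9 kb in H69M, in 2 and 5 clusters. EN2, an engrailed factor of the midbrain and hindbrain, lay in the window of the clusters chr7:155241412-155283854 in H69 (9.94 kb) and chr7:155222326-155290456 in H69M (12.2 kb), again with no H3K27ac. LHX2, another LIM homeobox factor, had 4.28 kb and 6.25 kb in its window. In all these windows the mark was longer in H69M. The whole H3K27me3 list was longer in H69M too, by a ratio of 1.62, and depth is unknown. No gain at these genes is therefore read from their lengths.

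GATA6, a zinc finger factor of endoderm and heart, had the highest peak score of all clusters in these windows, 1576 in H69 and 2315 in H69M. Its H69 cluster chr18:19724790-19762667 was covered over 9.56 kb and its H69M cluster chr18:19729056-19785262 over 11.2 kb, and 1 H3K27ac peak of 2.58 kb lay inside in H69M only. PAX2, a factor of kidney and eye, had 1.51 kb in H69 against 4.75 kb in H69M, and PAX7, of muscle precursors, 1.33 kb and 2.94 kb, both without H3K27ac. WT1, a zinc finger factor of the kidney, had 7.24 kb and 8.32 kb, and the OLIG2 and OLIG1 window of oligodendrocyte factors 7.88 kb and 11.4 kb. SHH, the secreted ligand of the hedgehog pathway, had 1.92 kb and 2.38 kb. The homeobox genes GSC and PITX1 went the other way, with 2.99 kb in H69 against 2.45 kb in H69M at GSC and 2.41 kb and 1.99 kb at PITX1.

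The HOX gene clusters, which pattern the body axis, did not share one state. HOXA held 4 short H3K27me3 peaks in H69 and 1 in H69M, no peak cluster, and 32.5 kb and 44.8 kb of H3K27ac. HOXD held no H3K27me3 peak, and 22.2 kb and 23.1 kb of H3K27ac. HOXC was covered by H3K27me3 over 10.1 kb in H69 against 5.33 kb in H69M, the reverse of the order in the whole lists. The HOXC window also held 26.8 kb and 33.1 kb of H3K27ac, more than HOXD in both lines. HOXB was split within itself. The H69 cluster chr17:46759844-46845190 (11.4 kb) and the H69M cluster chr17:46750434-46832808 (19.5 kb) had no H3K27ac peak in either line. The H69 cluster chr17:46697130-46726036 (14 peaks over 3.07 kb) held no H69M H3K27me3 peak, and had 4.47 kb of H3K27ac in H69 against 5.63 kb in H69M.

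A few windows differed between the lines. The window of PAX3, a neural crest and muscle factor, was overlapped by the H69 cluster chr2:223169922-223194644 with 1.40 kb. The window itself held 0.205 kb in 2 H69 peaks, so most of the cluster's covered length lay outside it. The cluster held no H69M peak, and H3K27ac of 0 in H69 and 4.72 kb in H69M. TBX20, a T-box factor of the heart, had the H69 cluster chr7:35293098-35301884 with 1.44 kb, no H69M peak, and 1 short H3K27ac peak in each line. The end of the FOXC1 window had the H69 cluster chr6:1604763-1615141 with 2.43 kb, no H69M peak, and 0.86 kb of H3K27ac in H69, against 4.69 kb in H69M. In the other direction GATA3, a zinc finger factor of T cells, and EOMES, a T-box factor, had a cluster in H69M alone. At GATA3 the mark covered 0 in H69 and 2.03 kb in H69M, and at EOMES 0.575 kb and 0.657 kb. Both windows had no H3K27ac in either line, and the EOMES values show a difference in joining more than in length.

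Windows without a cluster mostly carried H3K27ac. Of the 52 windows with a cluster in neither line 47 (90.4%, 79.0 to 96.8) had an H3K27ac peak, in H69 and in H69M alike. Of the 23 with a cluster in both lines 10 (43.5%, 23.2 to 65.5) had one in H69 and 9 (39.1%, 19.7 to 61.5) in H69M. Of the 30 kb tiles 22.9% held an H69 H3K27ac peak and 29.4% an H69M one, so the windows with a cluster were not low against the tiles. The windows of 50 kb or shorter gave the same order, with 33 of 38 and 4 of 11 in each line. FOXA1 and NR2F1 had no H3K27me3 peak, with 13.7 kb and 15.7 kb of H3K27ac at FOXA1 and 13.3 kb and 15.1 kb at NR2F1. ZIC1 with ZIC4, and FEZF2, had neither mark in either line.

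**Figure D4:**
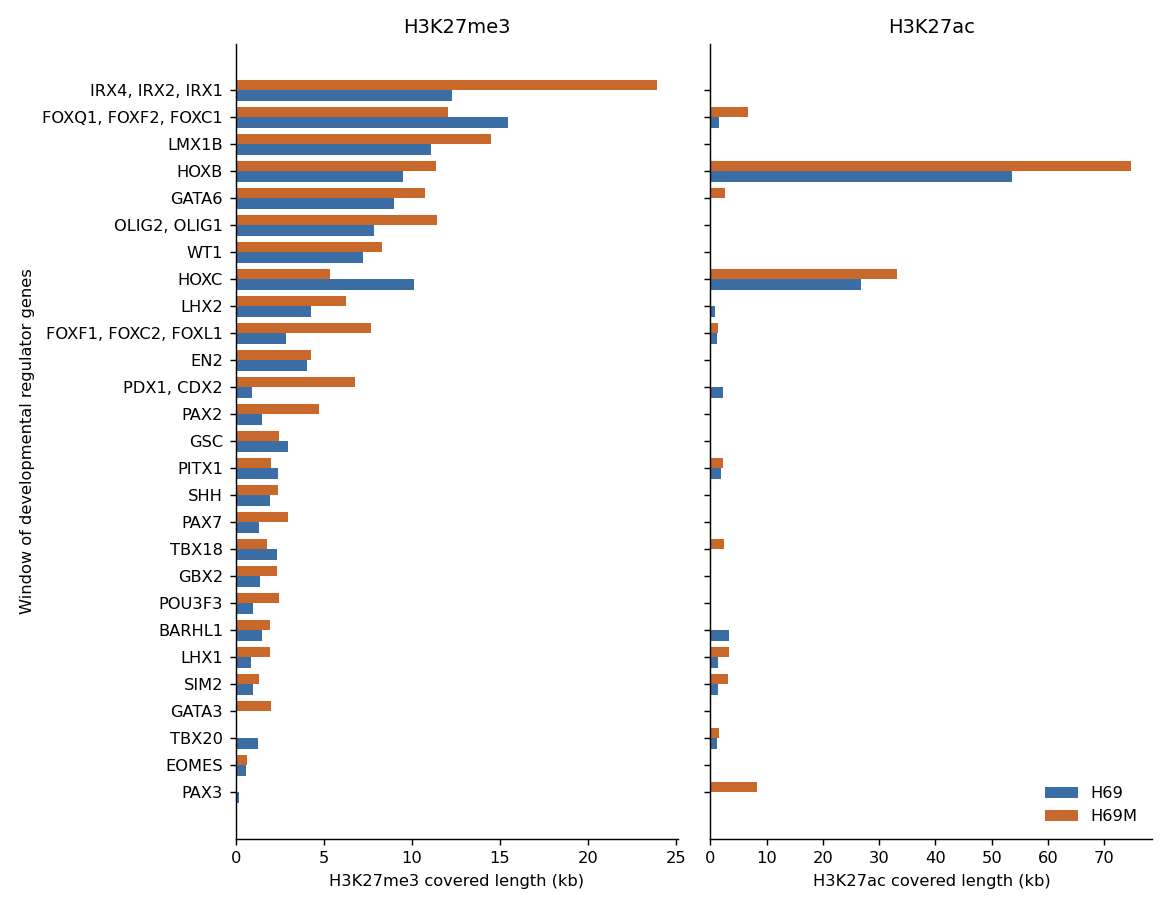
Covered length of H3K27me3 (left) and H3K27ac (right), in kb, within windows of developmental regulators that overlap a peak cluster in at least 1 line, for H69 (blue) and H69M (orange); the lengths are of the window and not of the cluster. Most windows with H3K27me3 have little or no H3K27ac, and the HOXB and HOXC windows have both.

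Other gene groups went in both directions. The leukocyte receptor window of chromosome 19, with its LILR and KIR receptor genes, held 10 clusters in each line, with 33.2 kb in H69 against 45.2 kb in H69M. The protocadherin window held 1 cluster in H69 and 2 in H69M, but less H3K27me3 in H69M, with 43 peaks over 9.68 kb in H69 and 38 over 6.61 kb in H69M. The histone gene window of chromosome 6 was also lower in H69M, with 9.18 kb in H69 and 7.80 kb in H69M. The type I keratin window held 0 and 4 clusters, and 4.72 kb and 11.2 kb of H3K27me3. In the telomeric MHC class I window, with genes for antigen presentation, H69 had 14 peaks in no cluster and H69M 33 peaks with 4 clusters, covering 3.55 kb and 6.45 kb. The window of HLA-C and HLA-B held 0 and 1 clusters, with 1.57 kb and 2.34 kb. For H69 and H69M, H3K27ac came to 5.22 kb and 6.77 kb in the telomeric window. In the HLA-C and HLA-B window it came to 1.73 kb and 1.80 kb. The whole H3K27me3 list was longer in H69M by a ratio of 1.62, so no gain at MHC class I genes is read here.

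H3K27ac of the same line was less frequent inside the clusters as a whole than beside them, but not inside the short ones. Of the H69 clusters 98 (10.6%, 8.69 to 12.8) held an H69 H3K27ac peak, against 23.1% of flanks of equal length on either side and 4.02% of H69 joined regions of any size, most of which are far shorter. Of the H69M clusters 255 (14.3%, 12.7 to 16) held an H69M H3K27ac peak, against 20.9% of flanks and 7.39% of joined regions. By length, H69 H3K27ac covered 6.29 bp per kb inside H69 clusters and 24.2 bp per kb in the flanks, and H69M H3K27ac covered 11.6 and 28.2 bp per kb for H69M clusters. The difference from the flanks varied with span. In H69 clusters of 40 kb or more H69 H3K27ac covered 1.84 bp per kb, against 33.3 in their flanks. In H69 clusters under 10 kb it covered 24.4 bp per kb, against 19.98 in the flanks. In H69M clusters of 40 kb or more H69M H3K27ac covered 8.87 bp per kb, against 38.0 in the flanks. In the 527 H69M clusters under 10 kb it covered 41.98 bp per kb, against 20.2 in the flanks, and 14.6% of them held a peak, against 10.2% of flanks.

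The H3K27ac peaks inside clusters had lower scores than those elsewhere. A score of 1000 or more was held by 9 of 129 H69 peaks inside H69 clusters (6.98%, 3.24 to 12.8) and by 24.8% of those outside. In H69M it was held by 56 of 381 (14.7%, 11.3 to 18.7) and by 26.5% outside. Many of them lay directly on an H3K27me3 peak, 75 of 129 in H69 and 273 of 381 in H69M. The score is the authors' and its definition is not given in the sources used here.

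Shared and line-only clusters differed in what H3K27ac did across the lines, but they differed in span as well. The median span was 15.6 kb for H69-only clusters against 19.7 kb for shared H69 clusters. It was 12.998 kb for H69M-only clusters against 26.7 kb for shared H69M clusters. The difference from the flanks varied with span, and whether sharing or span gave the contrasts below was not tested. In shared H69 clusters, H69 H3K27ac covered 5.19 bp per kb inside and 23.8 in the flanks, and H69M H3K27ac 16.8 and 31.9. In H69-only clusters, H69 H3K27ac again was lower inside, 12.2 against 26.3 bp per kb, but H69M H3K27ac was as frequent inside as beside, 49.1 against 49.8. Of these 206 clusters 66 (32.0%, 25.7 to 38.9) held an H69M H3K27ac peak, against 7.99% of H69 joined regions of any size, and 30 (14.6%, 10.05 to 20.1) held an H69 one. H3K27ac was present in H69M alone in 40 and in H69 alone in 4. The H69M H3K27ac list is the longer one, 51091 peaks against 38255, and in shared H69 clusters too the counts were 81 for H69M alone and 22 for H69 alone.

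The reverse contrast was weaker. In the 1106 H69M-only clusters H69M H3K27ac covered 10.7 bp per kb inside and 14.4 in the flanks, and H69 H3K27ac 10.2 and 10.06. An H69 H3K27ac peak lay in 142 (12.8%, 10.9 to 14.96), against 6% of H69M joined regions of any size, and an H69M one in 129 (11.7%, 9.83 to 13.7). H3K27ac was present in H69 alone in 72 and in H69M alone in 59. In the 327 of them with no H69 H3K27me3 peak, H69 H3K27ac covered 17.4 bp per kb inside against 5.48 in the flanks, and 55 of the 327 (16.8%, 12.9 to 21.3) held a peak, against 8.72% of flanks. H69M H3K27ac covered 9.12 and 8.04 bp per kb there. The 327 clusters thus held more H69 H3K27ac than their flanks, whereas over all 1106 the lengths inside and in the flanks were nearly equal. The 327 were picked for lacking H69 H3K27me3, which sits on the same lysine as H3K27ac. They were run under no alternative setting. Short H69M clusters, under 10 kb, also exceeded their flanks in H69 H3K27ac, with 40.2 against 16.2 bp per kb. Whether the choice of the 327 or their span gave the excess was not tested. In the 48 H69-only clusters with no H69M peak, H69M H3K27ac covered 78.8 bp per kb inside and 79.1 in the flanks.

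**Figure D5:**
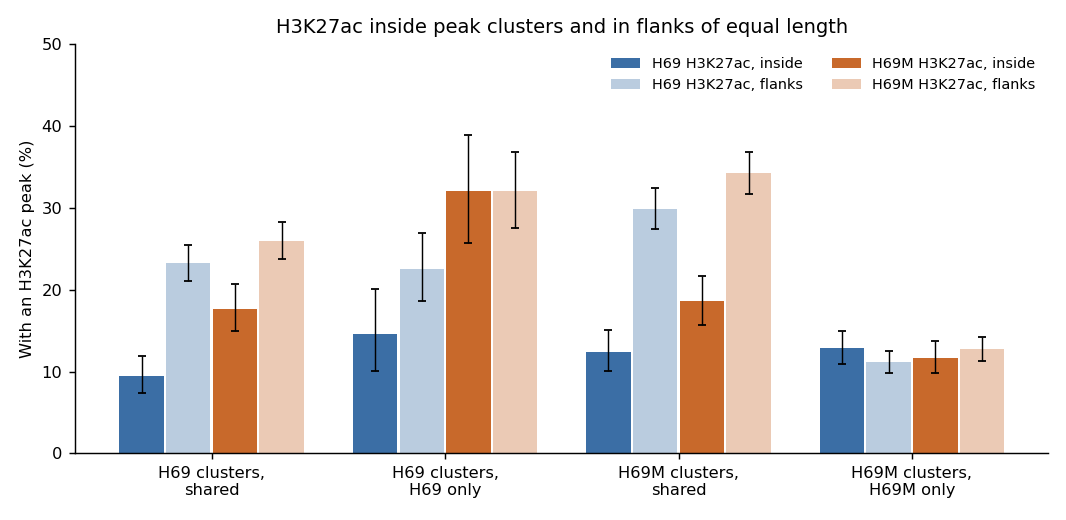
Share of H3K27me3 peak clusters (dark bars) and of their flanks of equal length (pale bars) with at least 1 H3K27ac peak of H69 (blue) or H69M (orange), with exact 95% binomial intervals for counting error, for shared and line-only clusters of each line. In shared clusters the dark bars are below the pale ones for both lines, and in the H69-only clusters the H69M bars are equal at 32.0%.

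The single clusters named here come from a ranking of line-only clusters by H3K27ac of the other line. Its presence in them follows from that choice. The H69-only cluster with the most H69M H3K27ac was chr22:30621236-30635301, with 6 H69 H3K27me3 peaks and none in H69M, and H3K27ac of 0 in H69 and 10.7 kb in H69M. The next, chr13:112707896-112716953, had 3.40 kb of H3K27me3 in H69 and 0.181 kb in H69M, with 0.954 kb and 7.24 kb of H3K27ac. The cluster chr19:41102580-41120553 lay within LTBP4, which encodes a TGF-beta binding protein of the matrix, with 2.22 kb of H3K27me3 in H69 and 0.574 kb in H69M. H3K27ac there was 0 in H69 and 6.07 kb in H69M. This gene and all genes named in the paragraphs below, from FOXB1 to CCND1, were picked after their values were seen. They were placed from general knowledge of hg19.

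In the opposite direction, the H69M cluster chr15:60288382-60298504 lay on FOXB1, a forkhead factor of the developing brain. It had 13 H69M H3K27me3 peaks over 3.06 kb and none in H69, and 4.89 kb of H3K27ac in H69 and none in H69M. The cluster with the most H69 H3K27ac among the H69M-only ones was chr18:45661945-45671467, with 2.05 kb of H3K27me3 in H69M, none in H69, and 6.19 kb of H3K27ac in H69, against none in H69M. The rest of the 5 H69M-only clusters so ranked had H3K27ac in both lines. Among them, chr21:47049096-47063966 had 5.48 kb in H69 and 4.01 kb in H69M. PRDM13, a zinc finger factor of the nervous system, lay instead in an H69-only cluster, chr6:100038708-100067342. It had 3.69 kb and 0.354 kb of H3K27me3 and 2.13 kb and 4.30 kb of H3K27ac in H69 and H69M. H69 thus had both marks in the PRDM13 cluster. At the FOXB1 and chr18 clusters H3K27me3 in H69M alone faced H3K27ac in H69 alone.

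Some clusters kept H3K27me3 and had H3K27ac in the same line. Those named here were reached through a ranking of clusters by H3K27ac of their own line, so its presence follows from that choice. The H69 cluster chr19:41695013-41767742 spanned AXL, which encodes a receptor tyrosine kinase known from mesenchymal cells. It had 27 H69 H3K27me3 peaks over 6.34 kb, and H69M had 3.40 kb there. H3K27ac was 0 in H69 and 8.19 kb in H69M, in 2 peaks. Around the collagen VI gene COL6A2 the H69M-only cluster chr21:47469617-47561963 had 4.45 kb of H3K27me3 in H69 and 14.2 kb in H69M, with H3K27ac of 0 and 13.6 kb. At the collagen XVIII gene COL18A1 the H69M cluster chr21:46764275-46897781 had 13.9 kb and 19.4 kb of H3K27me3, and 0.728 kb and 14.8 kb of H3K27ac. Both clusters were higher in both marks in H69M. They ranked 1 (COL18A1) and 2 (COL6A2) among H69M clusters by H69M H3K27ac, and the COL6A2 cluster was H69M-only by H3K27me3. Nothing is therefore read from these differences. On the COL6A2 gene itself H3K27ac was 0 in H69 and 1.30 kb in 1 peak in H69M, so most of the cluster's H3K27ac lay off the gene. On the COL18A1 gene itself H3K27ac was nearly equal, with 4.52 kb in 3 peaks in H69 and 5.29 kb in 4 peaks in H69M. The cluster chr11:69436676-69457804, next to the cyclin D1 gene CCND1, had both marks in both lines, with 2.17 kb and 2.58 kb of H3K27me3 and 4.42 kb and 3.01 kb of H3K27ac.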

How the data were processed

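Formaldehyde-fixed chromatin was sonicated, precipitated and sequenced from paired ends, per the labels' protocols. Bowtie2, SAMtools 0.1.19 and the build hg19 are named in the submitters' processing notes. Each antibody library had 1 list of peaks deposited by the authors, with positions, names that carry the word MACS and a score. The caller's version, its settings and its use of the 2 input libraries were not given in the sources used here. Without read counts in the lists, depth is unknown and could not be adjusted for. A deeper library gives more peaks, and with them more clusters.

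Peaks were joined, compared and summed with Python 3.11.15, numpy 2.4.6 and pandas 2.3.3, and exact intervals (Clopper-Pearson, 95%) came from scipy 1.17.1. The joining was tested on simulated peaks, and all 400 planted regions were recovered. Positions are 1-based. Flanks are the stretches of the cluster's own length on either side. Shares are given with no test, since each group holds 1 library. The 30 kb tiles run from the first to the last peak of each chromosome, leaving out the longest peak-free stretch.

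No annotation of hg19 was used. The 88 gene windows (80 of developmental regulators) were placed from general knowledge of hg19, and the chromosome of all 102 gene symbols was checked in the RefSeq table of GRCh38.p14, whose promoter sequences are shown. The planned gene lists by annotation were not used here. The rule for named clusters takes, in each line, the 10 with the greatest covered length, the 5 longest line-only ones, the 5 with the most H3K27ac of that line, the 5 line-only ones with the most H3K27ac of the other line, and those in the windows. The members, windows and lists were chosen with earlier results of these data known. Alternatives changed the gap, the number of peaks, the score limits, list length, overlap and the regions beside the longest peak-free stretch. Contigs and chromosome Y were left out of the comparisons. Values of 2 windows are not reported here.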

Additional observations from a re-analysis of the deposited data

Results flagged for a closer look

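Sequences outside chromosomes 1 to 22, X and Y were not part of the comparisons, and they held peak clusters of their own. By the same rule 42 clusters of 5 or more H3K27me3 peaks lay on such contigs in H69M, which hold 489 of its 607 contig peaks, against 3 clusters with 18 of 65 peaks in H69. These were singled out as a signal in data the comparisons left out. Their part in the difference between the lines was not tested. Chromosome Y held 9 clusters in H69M and 0 in H69.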

How the results depend on the processing

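Across 85 alternatives of 13 values, 44 stayed within the counting interval or 1.5 times and 41 moved. In all of them the order of H69 and H69M was kept for the shares of shared clusters, of clusters with their own line's H3K27ac and of line-only clusters with the other line's H3K27ac. Shares are given as H69 then H69M clusters overlapping the other line's, clusters with H3K27ac of their own line in H69 then H69M, then H69-only clusters with H69M H3K27ac and H69M-only clusters with H69 H3K27ac. Joining over 5000 bp gave 73.2% and 29.3%, 7.10% and 10.9%, 25.5% and 10.2%. Joining over 20000 bp gave 44.1% for H69M overlap, then 17.1% and 22.2%, 41.6% and 18.1%. With at least 3 peaks there were 2033 and 3283 clusters, with 70.2% of H69 ones shared, 7.97% holding H3K27ac and 18.02% of H69-only ones holding H69M H3K27ac. With at least 10 peaks there were 292 and 690, with 83.9% and 33.2%, 13.01% and 17.4%, and 10.6% for the last share. With lists of equal length H69M had 1049 clusters, overlap was 58.7% and 52.0%, the covered length ratio 1.44, H3K27ac in H69M clusters 12.01% and H69M H3K27ac in H69-only clusters 21.2%. With H3K27me3 scores of 100 or more 84 and 259 clusters were left, with 82.1% and 25.1%, 4.76% in H69 and 40% of H69-only ones. Away from the longest peak-free stretch 40.5% of H69M clusters were shared. Requiring 50% of a cluster to be covered left 66.4% and 25.3%. H3K27ac scores of 100 or more gave 6.81% and 10.9%, and 8.77% of H69M-only clusters. The cause of these moves was not tested.

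Ratios of H3K27ac length inside over flanks, with alternatives chosen after seeing the data, were 0.464 and 0.985 in H69-only clusters for H69 and H69M H3K27ac, and 1.02 and 0.738 in H69M-only clusters. With equal list lengths they were 0.350 and 0.861, and 1.48 and 0.829, and with a gap of 5000 bp 0.558 and 1.47, and 1.44 and 1.01. For H69 H3K27ac in H69M-only clusters the ratio fell to 0.868 with H3K27ac scores of 100 or more and to 0.958 away from the longest peak-free stretch. Only the ratio for H69 H3K27ac in H69-only clusters stayed on the same side of 1 in all settings run. No paired analysis was possible because each line has 1 library per mark and the labels carry no replicate numbers. Depth is unknown, so more H69M peaks and a deeper H69M library cannot be told apart.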
